A study of Rattus norvegicus with 6 samples.

Results

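Transcripts of the ion exchangers and cotransporters of 9 solute carrier families (Slc4, Slc8, Slc9, Slc12, Slc13, Slc20, Slc24, Slc26 and Slc34) were examined in the inner medullary (IM) tip of control and diabetic rats. Members were all features of the deposited table whose name began with one of these family names, which gave 54 of 27321 features. Of the 54, 48 are carrier genes, 4 of them merged with an overlapping gene, 2 are the scaffold proteins Slc9a3r1 and Slc9a3r2, which bind the Slc9a3 exchanger and are no carriers themselves, and 4 lie between a carrier gene and its neighbour. Male Sprague-Dawley rats, 3 months of age, received a tail vein injection of streptozotocin (STZ, 62.5 mg/kg), a toxin of pancreatic beta cells, dissolved in citrate buffer, or of vehicle. STZ rats were checked for diabetes by their blood glucose. After 15 days, the terminal part of the inner medulla was dissected, and RNA of 3 control and 3 STZ samples was sequenced after PCR amplification of the cDNA. Both groups were of a single sex, strain and age, a single time was sampled, and no diabetic group given insulin is among the 6 libraries. Each library is bulk RNA of a dissected piece of tissue, so that fewer cells of a type and less RNA per cell cannot be told apart. The labels do not say whether a library came from 1 animal or from several, and the p-values measure the spread between these samples.

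The IM tip holds the end of the collecting duct, thin limbs of the loop of Henle, capillaries, interstitial cells and the epithelium that faces the renal pelvis. Ion exchangers swap one ion for another across the membrane, such as chloride for bicarbonate (Slc4 and Slc26), sodium for protons (Slc9) or sodium for calcium (Slc8 and Slc24). Cotransporters move several solutes in the same direction: chloride with sodium or potassium (Slc12), dicarboxylates, citrate or sulfate with sodium (Slc13), and phosphate with sodium (Slc20 and Slc34). In the kidney they set salt, acid, citrate and phosphate excretion, and several are textbook markers of nephron segments that lie above the IM tip, such as Slc12a1 of the thick ascending limb.

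Values are normalized counts, that is, reads per feature divided by a size factor for each library. They are not divided by transcript length, so levels of different genes are not ranked against each other. The libraries held between 3412311 and 5575171 reads on genes, of which 0.0897 to 0.127% fell on the members. All control libraries carried lane 3 in their column names and the STZ libraries lanes 7, 6 and 8, so lane and treatment cannot be told apart. The collecting duct water channel Aqp2 lay between 2137 and 3641 normalized counts in controls and between 3824 and 7413 in STZ, and Pvalb, a marker of the distal convoluted tubule, was at 0 in all 6 libraries. Markers of tissues around the collecting duct moved as well. Of the endothelial markers, 2 of 4 tested fell, and the summed level was 6168 to 7982 in control and 3022 to 3358 in STZ. Most of that sum was Emcn, at 4827 to 6520 in control and 2003 to 2246 in STZ, and Pecam1 overlapped between the groups. Of 5 urothelial markers tested 2 rose (summed level 85.4 to 132 in control, 440 to 517 in STZ). Upk3a alone was at 27.7 to 50.1 in control and 332 to 367 in STZ. Among 3 interstitial markers Pdgfra rose, and none of 8 principal cell, 4 thin limb, 5 leukocyte or 2 distal convoluted tubule markers tested passed, by limma at an adjusted p under 0.05. Of the 8 principal cell markers, 7 had a log2 fold change (STZ against control) above 0, and 1, Hsd11b2, lay below. In limma 5 of the 8, Hsd11b2 among them, had an unadjusted p under 0.05, against 14.7% of all features tested. The part of these cell types in the results that follow was not tested.

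Of the members tested, 4 differed between the groups: Slc13a2 (sodium-dicarboxylate cotransporter) and Slc12a2 (sodium-potassium-chloride cotransporter) rose in STZ, and Slc4a1 (chloride-bicarbonate exchanger) and the scaffold Slc9a3r2 fell. The test covered the 42 members whose mean was at least 5 normalized counts, and 4 of 42 (9.52%) had an adjusted p under 0.05 by limma, against 2.10% of the 13486 features tested. In each direction 2 of 42 (4.76%) passed, against 1.17% of all features for rises and 0.927% for falls. At an unadjusted p under 0.05, 9 of the 42 passed, against 14.7% of all features. The STZ values lay wholly above the control values for 7 members and wholly below for 7, or 33.3% of the 42 together, against 20.3% of all features (10.1% above and 10.3% below). Fold changes are given as STZ against control, on a log2 scale after adding 1 to each value. Their median was -0.09 over the members and 0.01 over all features tested. Of the members, 19 lay above 0 and 23 below. Each of the 4 that passed was the only member of its family to do so.

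**Figure D1:**
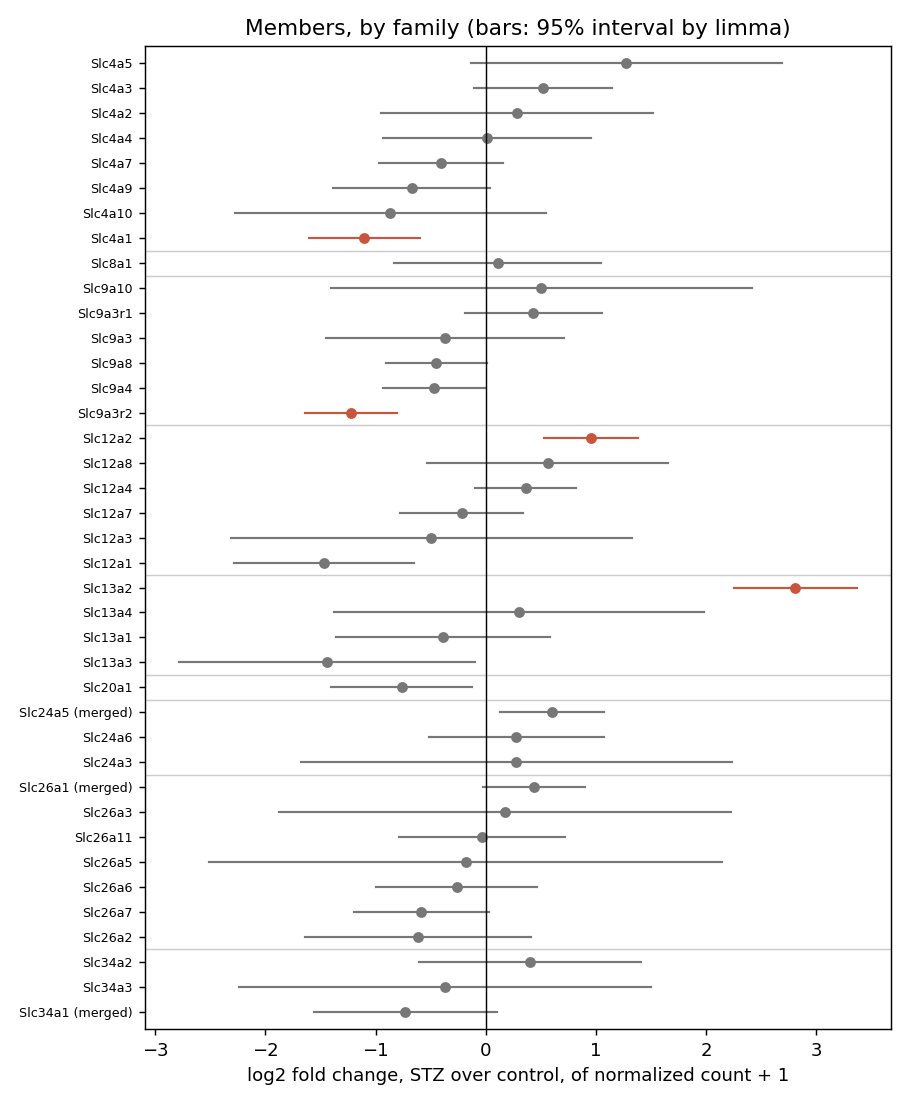
Log2 fold change (horizontal axis, STZ against control) of 39 of the 42 members tested, arranged by family, with bars for the 95% interval of limma and red for an adjusted p under 0.05. Slc13a2 stands farthest from 0 at 2.81, Slc12a2 is the other red point on the right, and Slc4a1 and Slc9a3r2 are red on the left, whereas Slc12a1 at -1.47 has a wide interval and is grey.

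Slc13a2 encodes NaDC1, which takes up citrate and other Krebs cycle intermediates with sodium and is best known from the brush border of the proximal tubule. Its gene lies at chr10:64503788-64531097 (rn4). Replicates 1, 2 and 3 of the control group held 35.9, 39.7 and 22.3 normalized counts of Slc13a2, and those of the STZ group 196, 255 and 237; values of other genes are given in the same order. Every STZ library was above every control library. The mean rose from 32.6 ± 9.15 to 229 ± 30.3 (SD, n = 3 each), a ratio of 7.03, and the log2 fold change was 2.81 (SE 0.25, limma adjusted p = 0.000341). Among the 13486 features tested it ranked 10 by p and 21 by log2 fold change. It passed the threshold in 17 of 17 other settings of the analysis, with log2 fold changes between 2.56 and 2.97. No proximal tubule marker passed in the same direction. Of 10 listed and found, 9 were tested, and 1, Kap, fell (log2 fold change -2.31, limma adjusted p = 0.0125). Their summed level was 478 to 686 in control and 283 to 380 in STZ libraries. Kap alone held 174 to 283 of it in control and 20.8 to 65.0 in STZ libraries. Lrp2, which marks the proximal brush border, was between 6.15 and 34.1 normalized counts. Of the 5 urothelial markers tested, all uroplakin genes, 2 rose beside it, Upk3a (log2 fold change 3.30, limma adjusted p = 0.000117) and Upk1b (1.25, limma adjusted p = 0.0489). Upk2, Upk3b and Upk1a, at 0.96, 0.62 and 0.04, did not pass (limma adjusted p = 0.377, 0.649 and 0.979). The part of either tissue in the rise of Slc13a2 was not tested.

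None of the remaining Slc13 genes passed. Slc13a3, the high-affinity dicarboxylate carrier NaDC3 of basolateral membranes, was at 6.15, 13.7 and 28.9 normalized counts in control and at 4.64, 5.93 and 3.01 in STZ libraries. Its groups did not overlap, with STZ the lower, but at these low counts the log2 fold change of -1.44 (95% interval -2.78 to -0.10) had a limma adjusted p of 0.295. Slc13a1, the sodium-sulfate cotransporter NaS1, was at 10.3, 25.2 and 14.5 in control and 9.29, 9.89 and 17.1 in STZ (log2 fold change -0.39, limma adjusted p = 0.795). Slc13a4, a related sulfate carrier, was at 1.03, 6.86 and 7.79 in control and 3.71, 6.92 and 6.02 in STZ (log2 fold change 0.30, limma adjusted p = 0.929). In both sulfate carriers the groups overlapped. Slc13a5, the sodium-citrate carrier NaCT best known from liver, stayed between 1.86 and 6.68 normalized counts, was at or under 3 reads in 3 libraries and was not tested. Over these 4 genes the summed level was 19.5, 51.1 and 57.9 in control and 19.5, 26.7 and 29.1 in STZ libraries, and the groups overlapped (two-sided exact permutation p = 0.4). Slc13a2 made up 64.8, 43.7 and 27.8% of all Slc13 reads in control replicates 1, 2 and 3, and 90.9, 90.5 and 89.1% in the STZ replicates. The controls were spread widely and all lay below the STZ libraries (45.4 ± 18.6% against 90.2 ± 0.993%, n = 3 each, two-sided exact permutation p = 0.1, the smallest that 3 against 3 libraries allow). Given the ranges of Slc13a2 and of the sum of the other 4 genes, these shares could not overlap. They restate the rise of Slc13a2 and are no further test.

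**Figure D2:**
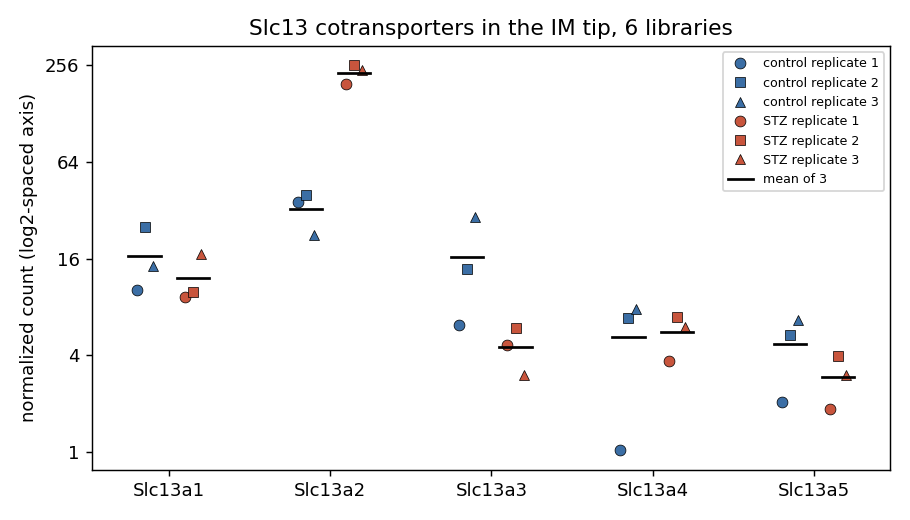
Normalized counts (log-spaced axis) of the 5 Slc13 genes in each library, with control in blue, STZ in red, a marker shape for each replicate number and a line at the mean of 3. Only for Slc13a2 do all red points sit far above the blue points, at 196 to 255 against 22.3 to 39.7, and for Slc13a3 all red points lie below the blue.

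The 250 bases upstream of the annotated starts of 3 of the 4 members that passed are shown, since these are the genes on which the comparison turns. They are RefSeq sequences of the build GRCr8, printed 5′ to 3′ on the strand of the gene. Capitals mark TATAA (TATA element) and GGGCGG (GC box), each searched on both strands. Slc13a2 is from chr10:63817185-63817434 (minus strand), Slc12a2 from chr18:53546083-53546332 (plus strand), and Slc9a3r2, which RefSeq calls Nherf2, from chr10:14177520-14177769 (minus strand).
Slc13a2: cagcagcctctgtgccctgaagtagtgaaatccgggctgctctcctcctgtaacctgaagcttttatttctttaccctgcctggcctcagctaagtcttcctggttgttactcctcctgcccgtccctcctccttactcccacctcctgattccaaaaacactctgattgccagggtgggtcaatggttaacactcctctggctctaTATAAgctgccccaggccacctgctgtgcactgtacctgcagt
Slc12a2: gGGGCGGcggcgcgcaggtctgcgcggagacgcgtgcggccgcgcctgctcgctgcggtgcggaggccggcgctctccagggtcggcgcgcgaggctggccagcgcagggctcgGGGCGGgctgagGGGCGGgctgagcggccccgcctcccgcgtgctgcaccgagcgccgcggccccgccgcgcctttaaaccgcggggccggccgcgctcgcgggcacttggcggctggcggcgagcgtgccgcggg
Slc9a3r2: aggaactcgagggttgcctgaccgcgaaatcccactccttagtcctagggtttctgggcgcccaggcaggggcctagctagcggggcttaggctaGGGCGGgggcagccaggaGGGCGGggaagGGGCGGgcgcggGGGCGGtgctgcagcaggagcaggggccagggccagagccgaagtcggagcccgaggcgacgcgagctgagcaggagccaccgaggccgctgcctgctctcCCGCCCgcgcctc
The upstream window of Slc13a2 held 1 TATAA, beginning at position -43 from the start, no GGGCGG, and a GC content of 53.6%. That of Slc12a2 held 3 copies of GGGCGG with 83.2% GC, and that of Slc9a3r2 held 5 at 72.8%, with no TATAA in either. For comparison, TATAA occurred in 24.0% and GGGCGG in 30.5% of 33469 RefSeq promoter windows of the same length. Neither the E-box CACGTG, which 5.59% of all windows held on either strand, nor the core of the NFAT5 site, TGGAAA, which 19.7% held, occurred in these 3 windows. They also held neither TGACGT, the core of the cAMP response element (6.95% of all windows), nor GTTAAT, part of the HNF1 site (6.45%). That says only that these letters are not there. A RefSeq window was matched for 39 of the 50 members that do not lie between genes.

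In the Slc12 family the secretory and the absorptive sodium-potassium-chloride cotransporters lay on opposite sides of 0, and only the secretory form passed the test. Slc12a2 encodes NKCC1, which loads cells with chloride, usually across the basolateral membrane. Slc12a2 (chr18:53673214-53741352, rn4) was at 475, 345 and 394 normalized counts in control and at 699, 743 and 906 in STZ libraries. All STZ values were above the controls. The mean went from 404 ± 65.6 to 783 ± 109 (SD, n = 3 each), a ratio of 1.94, and the log2 fold change was 0.95 (SE 0.19, limma adjusted p = 0.0341). It passed in 11 of 17 other settings. The adjusted p was 0.0632, 0.113 and 0.108 without STZ replicates 1, 2 and 3 in turn, and 0.166 without control replicate 2.

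Slc12a1 encodes NKCC2, the furosemide-sensitive cotransporter of the thick ascending limb. Slc12a1 (chr3:112455896-112534738) was at 636, 641 and 691 normalized counts in control and at 463, 230 and 123 in STZ libraries. Control libraries lay close together, whereas the STZ libraries were spread and all lower. The means were 656 ± 30.6 and 272 ± 174 (SD, n = 3 each), with a log2 fold change of -1.47 (95% interval -2.28 to -0.65) and a limma adjusted p of 0.0732, above the threshold. Without STZ replicate 1, the STZ library nearest to the controls, it was 0.00444 at a log2 fold change of -1.95, and without STZ replicate 3, the lowest, it was 0.139 at -1.002. The other libraries left out in turn gave adjusted p between 0.0944 and 0.229, and 5 of 17 other settings called it. Reads of Slc12a2 per read of Slc12a1 were 0.747, 0.537 and 0.570 in control and 1.51, 3.22 and 7.34 in STZ libraries. With Slc12a2 wholly higher and Slc12a1 wholly lower in STZ, this ratio could not overlap, so it is no further test.

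Of 9 thick ascending limb markers listed, 7 were found and 6 tested, and 2 of these, Umod and Egf, fell. Umod, the urinary protein uromodulin, was at 281, 557 and 941 normalized counts in control and 75.2, 84.1 and 50.2 in STZ libraries (log2 fold change -2.93, limma adjusted p = 0.00353). Cldn10, Cldn19 and Bsnd, some of which are also used by thin limb or intercalated cells, did not pass, and the summed level of the list was 3985 to 4288 in control and 3073 to 4718 in STZ libraries. Reads of Slc12a1 per read of Umod were 2.26, 1.15 and 0.735 in control and 6.16, 2.74 and 2.46 in STZ libraries, higher in every STZ library. The part of thick ascending limb tissue in the values of Slc12a1 was not tested.

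Slc12a3, the thiazide-sensitive cotransporter NCC of the distal convoluted tubule, stayed between 0.929 and 18.9 normalized counts (log2 fold change -0.50, limma adjusted p = 0.881). Potassium-chloride cotransporters, which let chloride leave the cell, did not pass: Slc12a4 and Slc12a7 had log2 fold changes of 0.36 and -0.22, and the least known member Slc12a8 one of 0.56, with limma adjusted p between 0.479 and 0.799. Summed over its 7 genes, the family held 1459 ± 56.6 normalized counts in control and 1461 ± 90.5 in STZ (n = 3 each, two-sided exact permutation p = 1.0).

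Slc4a1 encodes AE1 (band 3), the chloride-bicarbonate exchanger of red blood cells and of the basolateral membrane of acid-secreting intercalated cells. Slc4a1 (chr10:91454826-91471072) was at 182, 151 and 180 normalized counts in control and at 80.8, 101 and 60.2 in STZ libraries. All STZ libraries were below all controls. The mean fell from 171 ± 17.6 to 80.6 ± 20.3 (SD, n = 3 each), a ratio of 0.471, with a log2 fold change of -1.10 (SE 0.23, limma adjusted p = 0.0367). The result was close to the threshold: it passed in 9 of 17 other settings, and leaving out any single library gave adjusted p between 0.0533 and 0.107.

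Most intercalated cell markers, but not all, lay on the same side of 0 as Slc4a1. All 8 listed were found, 7 were tested, and 6 of these had a log2 fold change below 0. By limma 4 passed, all lower in STZ, or 57.1% of the 7 against 0.927% of all features. They were the proton pump subunits Atp6v1b1, Atp6v0d2 and Atp6v1g3 (log2 fold changes -1.87, -1.61 and -1.89) and the ammonia channel Rhcg (-1.17). The related channel Rhbg lay on the other side (log2 fold change 0.74, limma adjusted p = 0.107), Foxi1, the defining transcription factor, was at -1.03 (limma adjusted p = 0.201), and Aqp6 was at or under 3 reads in all 6 libraries. Summed, the list held 1976 to 3734 normalized counts in control and 1604 to 2170 in STZ libraries, and without Rhbg, a sum added after seeing the data, 1238 to 2754 in control and 505 to 585 in STZ libraries, with no overlap. Per 100 reads of these markers there were 4.89, 7.64 and 8.35 reads of Slc4a1 in control and 3.72, 5.02 and 3.75 in STZ libraries, and the groups overlapped (two-sided exact permutation p = 0.2). Leaving Rhbg out of the markers turned the direction, to 6.63, 12.2 and 12.9 reads in control and 13.8, 19.96 and 11.7 in STZ libraries, also with overlap (two-sided exact permutation p = 0.3). Of 8 red blood cell markers, 5 were found and none of the 5 passed in limma (1 did at an unadjusted p under 0.05), with a summed level of 3210 to 6892 in control and 1557 to 3792 in STZ libraries. Per 100 reads of these there were 2.65, 4.70 and 5.15 reads of Slc4a1 in control and 5.19, 3.57 and 1.59 in STZ libraries, again with overlap (p = 0.7 by the same exact test). The part of either cell type in the fall of Slc4a1 was not tested.

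**Figure D3:**
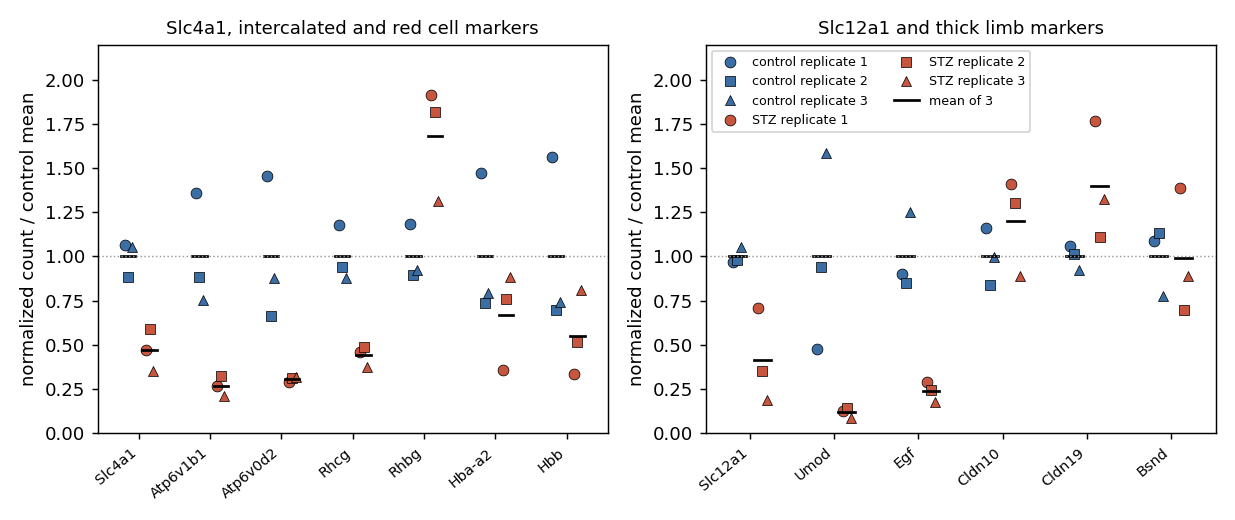
Value of each library divided by the control mean of the gene (vertical axis, control in blue, STZ in red, dotted line at 1). In the left panel Slc4a1, Atp6v1b1, Atp6v0d2 and Rhcg are lower in every STZ library and Rhbg is higher, while Hba-a2 and Hbb overlap between the groups. In the right panel Slc12a1, Umod and Egf are lower in every STZ library, and Cldn10 and Bsnd overlap.

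None of the other 7 Slc4 genes passed. Slc4a9 (AE4), an anion exchanger known from intercalated cells, was at 28.7, 18.3 and 25.6 normalized counts in control and 14.9, 13.8 and 15.1 in STZ libraries, with STZ wholly lower (log2 fold change -0.67, 95% interval -1.38 to 0.04, limma adjusted p = 0.375). Slc4a7 (NBCn1), an electroneutral sodium-bicarbonate cotransporter, was also wholly lower, at 34.9, 39.7 and 41.2 against 28.8, 24.7 and 33.1 (log2 fold change -0.41, limma adjusted p = 0.524). On the other side, Slc4a3 (AE3) was at 24.6, 23.6 and 25.6 in control and 27.9, 47.5 and 34.1 in STZ libraries (log2 fold change 0.52, limma adjusted p = 0.449). Slc4a5 (NBCe2), an electrogenic sodium-bicarbonate cotransporter, went from 2.05, 3.81 and 4.45 to 6.50, 17.8 and 7.03 (log2 fold change 1.27, limma adjusted p = 0.400). These 4 genes did not overlap between the groups, but their adjusted p-values were far from the threshold. With Slc4a1, 5 of the 8 Slc4 genes (62.5%) did not overlap, against 20.3% of all features. Slc4a5 lay above the 95th percentile of olfactory receptor genes, taken as background, in only 2 of 6 libraries. Slc4a2 (AE2) and Slc4a4 (NBCe1, the proximal tubule cotransporter) were at log2 fold changes of 0.28 and 0.01, the latter with a 95% interval of -0.94 to 0.96, and Slc4a10 at -0.87 (limma adjusted p = 0.908, 0.997 and 0.616). Summed over 8 genes, of which Slc4a1 held the most reads, the family was at 292 ± 25.8 in control and 199 ± 28.1 in STZ libraries (n = 3 each, two-sided exact permutation p = 0.1). This sum includes Slc4a1, which passed on the same libraries, so it is no further test.

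Among the sodium-proton exchangers and their scaffolds, the member that passed was a scaffold. Slc9a3r2 encodes NHERF2, a PDZ protein that ties Slc9a3 and other membrane proteins to the cytoskeleton and to kinases, and that in the kidney is also known from glomeruli and vessels. Slc9a3r2 (chr10:13890292-13900807) was at 613, 667 and 585 normalized counts in control and at 227, 318 and 259 in STZ libraries. All STZ values were lower. The mean fell from 622 ± 41.7 to 268 ± 46.6 (SD, n = 3 each), a ratio of 0.431, with a log2 fold change of -1.22 (SE 0.19, limma adjusted p = 0.00888). It passed in 14 of 17 other settings, and without control replicate 2 the adjusted p was 0.0537. Of the 4 endothelial markers tested, 2 fell beside it, Emcn (log2 fold change -1.38, limma adjusted p = 0.00679) and Plvap (-1.01, limma adjusted p = 0.0290). The other two, Cdh5 at -0.56 (limma adjusted p = 0.163) and Pecam1 at 0.04 (limma adjusted p = 0.972), did not pass, and the part of endothelium in the fall of Slc9a3r2 was not tested. The paralog Slc9a3r1 (NHERF1), at 26.7, 40.4 and 54.5 in control and 51.1, 56.4 and 51.2 in STZ libraries, did not pass (log2 fold change 0.43, limma adjusted p = 0.554). Reads of Slc9a3r2 per read of Slc9a3r1 were 23.0, 16.5 and 10.7 in control and 4.44, 5.65 and 5.06 in STZ libraries, without overlap (two-sided exact permutation p = 0.1). Given the ranges of both scaffolds, this ratio could not overlap, so it restates the fall of Slc9a3r2 and is no further test.

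No sodium-proton exchanger passed. Slc9a4 (NHE4, chr9:39725134-39778094), a basolateral exchanger known from the thick ascending limb and stomach, was at 750, 710 and 632 normalized counts in control and 653, 490 and 398 in STZ libraries. The groups overlapped, since STZ replicate 1 lay above control replicate 3, and the log2 fold change of -0.47 had a limma adjusted p of 0.331. Slc9a3 (NHE3), the apical exchanger of the proximal tubule that the scaffolds bind, was at 13.3, 22.1 and 28.9 in control and 27.9, 18.8 and 7.03 in STZ libraries, with overlap (log2 fold change -0.37, limma adjusted p = 0.840). Slc9a8, an exchanger of the Golgi, was at a log2 fold change of -0.45 and Slc9a10, a sperm exchanger, at 0.50, with limma adjusted p of 0.352 and 0.888. Slc9a2, Slc9a5 and Slc9a7 were under the mean of 5 normalized counts. Summed over all its features, scaffolds included, the Slc9 family was at 1621 ± 80.7 in control and 1070 ± 134 in STZ libraries (n = 3 each, two-sided exact permutation p = 0.1), and Slc9a3r2 and Slc9a4 held most of these reads. As Slc9a3r2 passed on the same libraries, this sum is no further test.

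**Figure D4:**
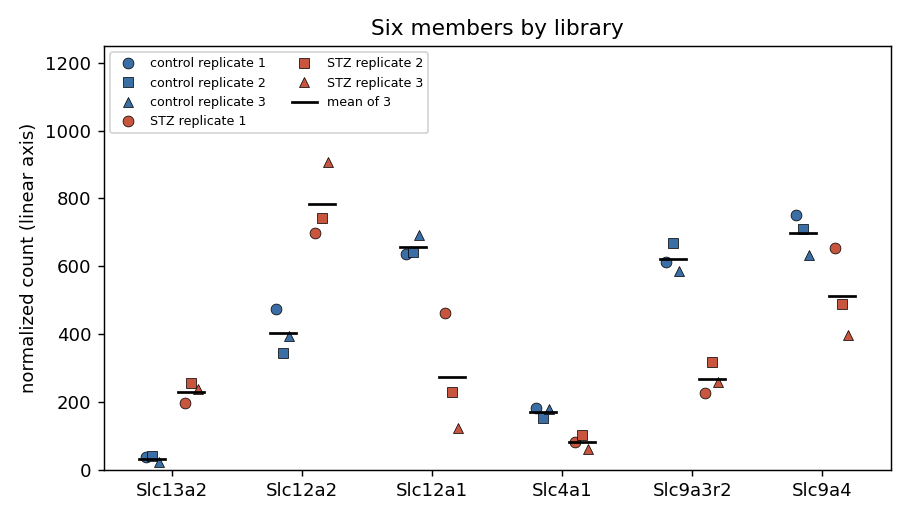
Normalized counts (linear axis) of Slc13a2, Slc12a2, Slc12a1, Slc4a1, Slc9a3r2 and Slc9a4 in each control (blue) and STZ (red) library, with a line at the mean of 3. Slc13a2 and Slc12a2 are higher and Slc12a1, Slc4a1 and Slc9a3r2 lower in every STZ library, with the widest STZ spread for Slc12a1 (123 to 463), and Slc9a4 overlaps.

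Neither the anion exchangers of Slc26 nor the phosphate cotransporters of Slc34 and Slc20 passed the test. Slc26a1, a sulfate and oxalate exchanger counted together with LOC100361089, was at 139, 169 and 121 normalized counts in control and 233, 176 and 175 in STZ libraries. It was wholly higher in STZ (log2 fold change 0.44, limma adjusted p = 0.372). Slc26a7, an anion carrier of intercalated cells of the outer medulla, was at 74.8, 56.4 and 83.5 in control and 33.4, 63.3 and 48.2 in STZ libraries, with overlap (log2 fold change -0.59, 95% interval -1.20 to 0.03, limma adjusted p = 0.369). Slc26a6, an apical chloride exchanger for oxalate and formate, was at -0.27 (limma adjusted p = 0.827). Slc26a4 (pendrin), which marks bicarbonate-secreting intercalated cells of the cortex, was at 2.05 to 10.02 in control and 1.86 to 4.02 in STZ libraries and was not tested. Slc26a2, Slc26a3, Slc26a5 and Slc26a11 had log2 fold changes between -0.61 and 0.17 and limma adjusted p between 0.630 and 0.983. Over the family the summed level was 305 ± 24.8 in control and 327 ± 18.9 in STZ libraries (n = 3 each, two-sided exact permutation p = 0.2).

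Slc20a1 (PiT1, chr3:116813987-116828033), a sodium-phosphate cotransporter found in most cells, was at 245, 206 and 483 normalized counts in control and 147, 172 and 196 in STZ libraries. The STZ values were wholly lower, and control replicate 3 stood well above the other controls (log2 fold change -0.76, 95% interval -1.41 to -0.12, limma adjusted p = 0.237). Slc34a1 (NaPi-IIa), the main phosphate cotransporter of the proximal tubule, is merged in the table with 2 overlapping predicted genes, so its reads cannot be assigned to it alone. This feature was at 95.3, 239 and 255 in control and 162, 102 and 76.3 in STZ libraries, with overlap (log2 fold change -0.73, 95% interval -1.56 to 0.10, limma adjusted p = 0.413). Slc34a2 and Slc34a3, also sodium-phosphate cotransporters, were at log2 fold changes of 0.40 and -0.37 (limma adjusted p = 0.796 and 0.922).

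None of the sodium-calcium exchangers passed. Slc8a1 (NCX1) lay between 7.63 and 11.1 normalized counts in all libraries (log2 fold change 0.11, 95% interval -0.83 to 1.04, limma adjusted p = 0.960). Slc24a6, a mitochondrial sodium-calcium exchanger, was at 132, 215 and 124 in control and 245, 263 and 97.4 in STZ libraries, with the lowest and the highest value both in STZ (log2 fold change 0.28, limma adjusted p = 0.836). Slc24a5, a potassium-dependent exchanger known from pigment cells, is counted together with the overlapping gene Myef2, at 82.0, 95.3 and 116 in control and 157, 162 and 125 in STZ libraries. The merged feature was wholly higher in STZ (log2 fold change 0.60, limma adjusted p = 0.199) and lies next to Slc12a1 on chromosome 3, which was wholly lower. Slc24a3 was at a log2 fold change of 0.28 (limma adjusted p = 0.946).

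The 12 members that were not tested were the 4 features between genes, which held 3 reads or fewer in every library, and 8 carrier genes, Slc13a5, Slc24a2, Slc26a4, Slc26a9, Slc8a3, Slc9a2, Slc9a5 and Slc9a7. Background was read from 836 olfactory receptor genes, whose 95th percentile was 1.86 to 10.02 normalized counts by library, and 31 of the 54 members lay above it in all 6 libraries. Below a mean of 20 normalized counts, 14 of 27 members were lowest in replicate 1 of both groups, against 2 of 23 at higher means.

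Regulators of these carriers and genes that work with them were read from a list of 47, of which 43 were found and 39 tested. Of these 2 rose and none fell, or 5.13% of the 39 against 2.10% of all features. Klhl2, an adaptor of a ubiquitin ligase that degrades the WNK kinases acting upstream of the Slc12 cotransporters, was at 141, 117 and 154 normalized counts in control and 396, 270 and 259 in STZ libraries. It was higher in every STZ library (log2 fold change 1.14, SE 0.22, limma adjusted p = 0.0263). Car3, a cytosolic carbonic anhydrase, was at 9.23, 12.97 and 11.1 in control and 39.9, 40.6 and 27.1 in STZ libraries, also without overlap (log2 fold change 1.60, SE 0.32, limma adjusted p = 0.0341). By group, 1 of 11 kinases and partners, 1 of 6 carbonic anhydrases and none of 7 scaffolds and adaptors, 6 partner channels, 4 phosphate hormone genes and 5 genes of citrate metabolism tested passed. When single libraries were left out, no regulator passed in limma without STZ replicate 1 or 2 or without control replicate 1 or 2. In these fits 5 to 7 of 39 had an unadjusted p under 0.05, against 1451 to 1757 of all 13486 features. By edgeR on all 6 libraries 2 were called.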

How the data were processed

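The comparison was between IM tip RNA libraries, 3 of the control and 3 of the STZ group. Per the paper's methods and the labels, the authors aligned reads to rn4 with STAR 2.3.1t, counted uniquely mapped reads per gene on the Ensembl RGSC3.4 gene models, and used DESeq 1.16.0 for normalization. The deposited signal is this normalized count, made by the authors, for 27321 features, and rn4 coordinates are those of the table. The counter and whether it used strand are not given in the sources used here, so antisense genes could share reads. Values were whole multiples of a step for each library, which gave whole reads for 100.0% of values (within 0.001 of a read). A feature at or under 3 reads was taken as at the floor, and floors and reads cover counting error only, since no molecular identifiers were used.

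As the values are no counts, groups were compared with limma 3.58.1 (R 4.3.3), after adding a pseudocount of 1 and taking log2, and with a prior variance that followed intensity. Features averaging less than 5 over the libraries were dropped, which left 13486. P-values were adjusted over all of them by Benjamini-Hochberg with a threshold of 0.05. Fold changes on this scale understate those of low genes. Summed levels and read ratios were compared with exact two-sided permutation tests. Other settings tried were a pseudocount of 0.5 or 5, a minimum mean of 1 or 20 or none, scaling to equal totals, quantile normalization, a prior variance without trend, edgeR 4.0.16 (quasi-likelihood) and DESeq2 1.42.0 on the recovered reads, the replicate number as a block, and each library left out. The methods were tested on simulated data. Tables and plots were made with Python 3.11.15.

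Named are all Slc13 genes, members that passed or whose groups did not overlap, the member with the highest mean in each family, and well known nephron transporters. Other members and some markers (Lrp2, Cdh5, Pecam1, Upk1a, Upk2 and Upk3b) are named to account for the members and for tissue beside them, and were chosen after their values were seen. The members and lists were chosen with earlier results of these data known. Slc20a2 was not analysed here, and a few members and markers that enter the counts and sums are not reported here singly.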

Additional observations from a re-analysis of the deposited data

How the results depend on the processing

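The number of members with an adjusted p under 0.05 was 4, and it stayed between 4 and 5 with both pseudocounts, both other minimum means, equal library totals, quantile normalization, edgeR, DESeq2 and the replicate block. It was 1 (Slc13a2) without the intensity trend and 1 without a filter on low values, and 1 to 3 with a library left out. Over all features the count was 283, and it was 599 by DESeq2, 502 after quantile normalization, 561 with the replicate block, 31 without the trend, 98 without a filter and 88 to 352 with a library left out. Of the regulators, 2 passed, against 4 by DESeq2, with equal totals and after quantile normalization, and 0 to 2 with a library left out. None (0) passed in limma without the trend or without a filter, and edgeR gave 2. Without the trend 7 of 39 had an unadjusted p under 0.05, against 1768 of 13486 features. Without a filter 9 of 43 did, against 2460 of 27321 features. The cause of these shifts was not tested, except that without a filter more features were tested.

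The same replicate numbers occur in both groups, and the labels do not say that a number marks anything shared. Deviations of same-numbered libraries correlated at 0.39, -0.06 and 0.32, and 4 of 6 libraries were closest to their own number. The replicate block gave 5 members, adding Slc12a1 (adjusted p = 0.0312).

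For 26 named genes, 420 values under other settings were computed, of which 389 kept the direction and side of the threshold, 17 lost the call, 5 gained it and 9 changed sign. None of the 9 was of a gene that passed. With a library left out, log2 fold changes ran from -1.15 to 0.38 for Slc12a3 (above 0 without STZ replicate 1 and, at 0.06, without control replicate 3), from -0.38 (without control replicate 1) to 0.68 for Slc13a4, from -0.039 (without control replicate 2) to 0.21 for Slc8a1, from -0.77 to 0.15 (without STZ replicate 3) for Slc9a3, and from -0.18 (without STZ replicate 2 or control replicate 1) to 0.20 for Slc4a4. Slc4a4 was also at -0.018 with equal totals and after quantile normalization. With 3 libraries a group, and a mean under 20 normalized counts for 27 members, a p above the threshold does not show that a member was unchanged.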
